A study of Mus musculus with 4 samples.

Results

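The RNA-sensing and interferon genes described here are 9 protein-coding genes of the pathway by which a cell detects double-stranded RNA and answers with interferon: *Adar*, *Eif2ak2*, *Ifih1*, *Mavs*, *Irf3*, *Irf9*, *Stat2*, *Isg15* and *Bst2*. They were chosen by name, for their place in the pathway, from the 50559 genes of a read count table, and all 9 were found there. The table holds 4 RNA-seq libraries of E14, a mouse embryonic stem cell (ESC) line, in which the m6A reader YTHDF2 was depleted by a lentiviral short hairpin RNA and then supplied again. One library came from cells with a scrambled hairpin and an empty vector (shScram+EV, titled shscr_EV by the submitters, the scrambled control). Another came from cells with a hairpin against *Ythdf2* and an empty vector (shYthdf2+EV, the knockdown). The remaining libraries came from cells with the same *Ythdf2* hairpin plus either wild-type YTHDF2 (shYthdf2+DF2WT, the wild-type rescue) or YTHDF2 mutated in m6A binding (shYthdf2+DF2Mut, the mutant rescue).

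The hairpin lines were stable per the study's methods, while its figure legends describe the rescue cells as knockdown cells transfected with YTHDF2 constructs. All the cells were kept in medium with leukemia inhibitory factor on gelatin, without a feeder layer named. Per the same methods they carried a tdTomato reporter driven by the *MERVL* promoter, which marks 2-cell-like cells. Each group was 1 library, so differences could not be checked against replicates and are given without p-values. Differences are log2 ratios of library-scaled counts, each with a 95% interval that covers counting error only and not the variation between cultures. A whole culture was sequenced, so fewer cells expressing a gene and less RNA per cell cannot be told apart.

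Cytosolic double-stranded RNA is recognized by helicases such as MDA5, the product of *Ifih1*, and RIG-I, which signal through the mitochondrial adaptor MAVS to the transcription factor IRF3 and so to type I interferon. Secreted interferon acts through its receptor and Janus kinases to assemble a complex that includes STAT2 and IRF9 and binds the interferon-stimulated response element of target genes, among them *Isg15*, *Bst2* and *Eif2ak2*. ADAR edits adenosine to inosine in double-stranded RNA and thereby keeps the cell's own RNA from being sensed, and pluripotent cells are known for a weak interferon response.

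The libraries held from 31533129 to 35742335 assigned reads, and mitochondrial genes took from 6.14% to 8.44% of them. *Ythdf2* itself had 2806 reads with the scrambled hairpin and 662 after knockdown, and 7661 and 6925 once wild-type or mutant YTHDF2 was supplied, a log2 ratio of -2.27 for the knockdown (95% interval -2.45 to -2.10). Reads of the constructs and of the endogenous gene cannot be told apart. The 9 ESC markers summed to between 5462 and 6146 CPM (counts scaled to a library of 1000000 reads), and markers of other cell types were mixed. Of the fibroblast list, *Lum* and *Dcn* had 0 reads throughout, while *Pdgfrb* had 393 to 747, *Fbn1* 403 to 580 and *Thy1* 243 to 448. Of the macrophage and blood list, *Adgre1* and *Tyrobp* had 0 reads throughout, while *Cd68* had 883 to 1110 and *Itgam* 132 to 143. Markers of the 2-cell-like state summed to 148 CPM with the scrambled hairpin and 397 after knockdown, and to 188 and 400 with wild-type and mutant YTHDF2.

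The 9 genes covered a wide range of levels, from well expressed to the detection limit. Per length, as CPM per kilobase of exon averaged over the libraries, *Stat2* stood highest at 13.3, followed by *Adar* at 11.98, *Mavs* at 10.2, *Irf3* at 6.88, *Irf9* at 5.38, *Eif2ak2* at 5.02 and *Bst2* at 2.60. *Stat2* and *Adar* could not be ordered, since their ranges over the 4 libraries (11.1 to 16.2 and 11.5 to 12.8) overlapped, and neither could *Irf9* and *Eif2ak2* (5.04 to 5.68 and 4.21 to 5.37). The ranges of the other neighbours in this order did not overlap. The place of *Eif2ak2* depends on the exon length used, since reads in exon bases shared with other genes went uncounted: per kilobase of its 4418 unshared bases it had 7.53 CPM (6.31 to 8.06), a range above that of *Irf9* and overlapping that of *Irf3* (6.36 to 7.30). *Ifih1* and *Isg15* stood at the bottom, at 0.0149 and 0.0104. The plot of levels by library shows each gene on its own scale.

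**Figure D1:**
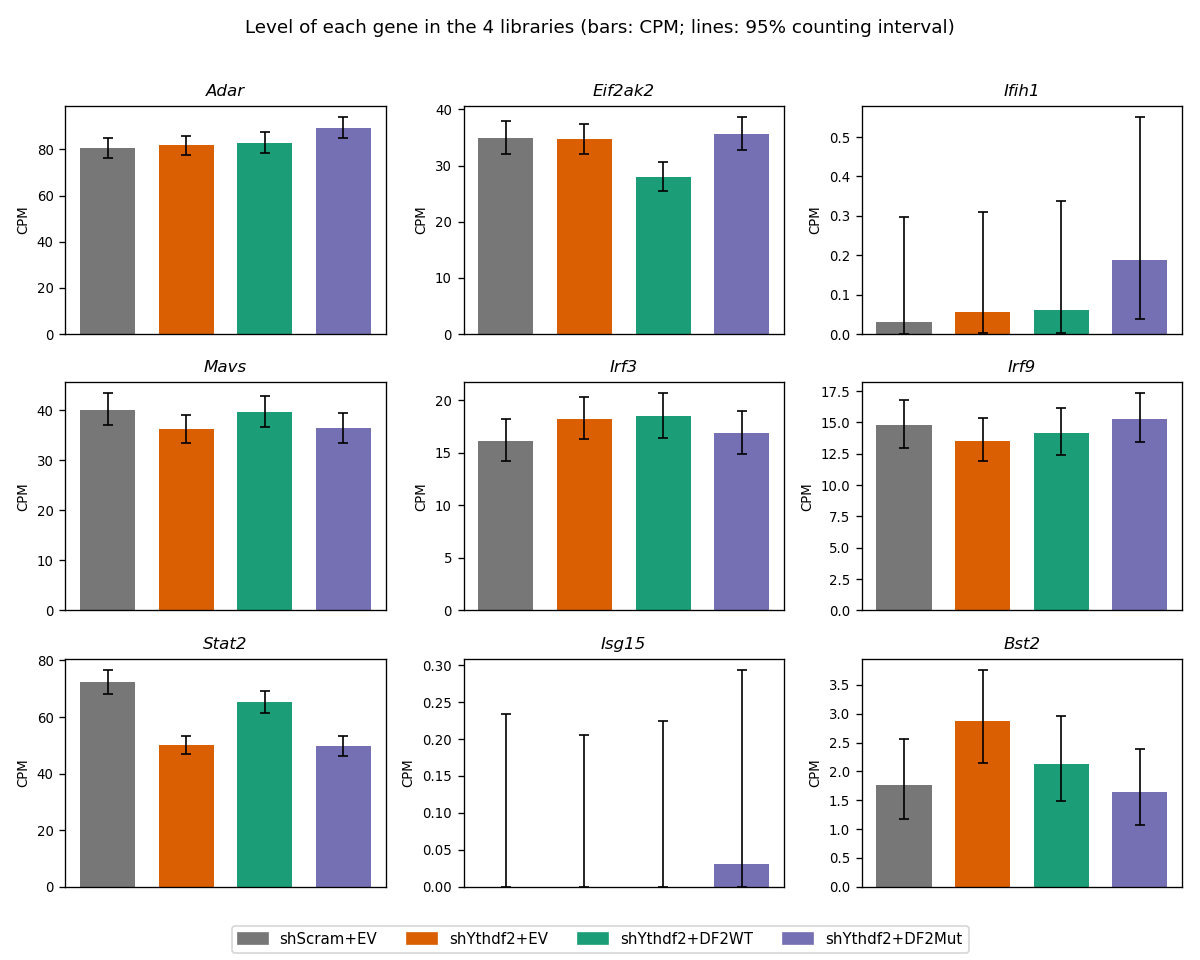
Level of each of the 9 genes in CPM (y axis from 0) in the 4 libraries, 1 bar per library, with lines for the 95% counting interval. *Stat2* stood at 72.4 and 65.3 CPM in shScram+EV and shYthdf2+DF2WT and at 49.99 and 49.8 in shYthdf2+EV and shYthdf2+DF2Mut, while *Ifih1* and *Isg15* stayed under 0.2 CPM.

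Of the sensors and enzymes that bind double-stranded RNA, *Ifih1* was barely detected. *Ifih1* (chr2:62426137-62476599, minus strand, mm39, as are the other gene positions below, each taken from the deposited table) had 1 read in the scrambled control, 2 in the knockdown, 2 in the wild-type rescue and 6 in the mutant rescue. A limit of detection set at 3 reads was exceeded in shYthdf2+DF2Mut only. Counted on read pairs, a count of 0 allows up to 7.38 reads, which no library exceeded. No ratio is given. Its sister sensor RIG-I, listed under the older symbol *Ddx58*, was far more abundant, with 924, 1259, 857 and 1274 reads in the order scrambled control, knockdown, wild-type rescue and mutant rescue, which is the order of every set of 4 read counts below.

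*Eif2ak2* encodes PKR, the kinase that shuts down translation when it binds double-stranded RNA. The gene (chr17:79157933-79190001, minus strand) had 1104, 1246, 918 and 1133 reads. The other libraries lay close together, at 34.7 to 35.6 CPM, while shYthdf2+DF2WT stood below them at 27.9 CPM. The log2 ratio was -0.01 in shYthdf2+EV against shScram+EV (-0.18 to 0.16), -0.31 in shYthdf2+DF2WT against shYthdf2+EV (-0.49 to -0.14), and 0.35 in shYthdf2+DF2Mut against shYthdf2+DF2WT (0.17 to 0.53). Against shScram+EV the wild-type rescue was also lower, by a log2 ratio of -0.32 (-0.51 to -0.14). The GC content of transcripts moved with these ratios: over 10512 genes averaging at least 200 reads, which share the same libraries, Spearman's rho between GC percentage and log2 ratio was 0.43 for shYthdf2+DF2WT against shYthdf2+EV, -0.50 for shYthdf2+DF2Mut against shYthdf2+DF2WT and 0.54 for shYthdf2+DF2WT against shScram+EV. The longest *Eif2ak2* transcript had 43.9% GC, against a median of 49.9% over tested genes. After centring on genes of like GC content and exon length, the *Eif2ak2* ratios were -0.13, 0.06 and -0.13, all nearer 0 than the lower-magnitude ends of their counting intervals. Of its 6632 exon bases, 2214 (33.4%) lie under the listed genes *Gm6548* and *Gm26637*, and reads there were assigned to none of them, so its level is understated.

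*Adar* (chr3:89621776-89660762, plus strand), the editing enzyme, varied little. It had 2545, 2939, 2730 and 2843 reads, or 80.5, 81.8, 82.9 and 89.4 CPM. In shYthdf2+DF2Mut it was slightly above shYthdf2+EV, by a log2 ratio of 0.13 (0.02 to 0.23), and the intervals of its other ratios held 0. The related editing gene *Adarb1* had 483, 473, 485 and 383 reads.

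*Mavs* (chr2:131075445-131089945, plus strand), the mitochondrial adaptor downstream of the sensors, had 1268, 1300, 1305 and 1158 reads, between 36.2 and 40.1 CPM. *Irf3* (chr7:44647072-44652272, plus strand), the transcription factor that the adaptor activates, had 509, 656, 608 and 536 reads, between 16.1 and 18.5 CPM. All 5 log2 ratios of each gene had an interval holding 0, the largest in size being 0.20 for *Irf3* in shYthdf2+DF2WT against shScram+EV (-0.05 to 0.44). For *Mavs* in shYthdf2+EV against shScram+EV the interval of -0.31 to 0.01 was nearly all below 0.

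*Stat2* gave the clearest pattern of the 9 genes. It encodes the STAT protein that is dedicated to type I and type III interferon signalling. The gene (chr10:128106367-128128722, plus strand) had 2289, 1797, 2151 and 1584 reads, or 72.4, 49.99, 65.3 and 49.8 CPM. The libraries fell into a higher pair, shScram+EV and shYthdf2+DF2WT, and a lower pair, shYthdf2+EV and shYthdf2+DF2Mut, whose counting intervals did not overlap. The knockdown stood at 0.690 of the scrambled control, a log2 ratio of -0.53 (-0.66 to -0.41). With wild-type YTHDF2 the log2 ratio to the knockdown was 0.39 (0.26 to 0.52), and with the mutant it was -0.01 (-0.15 to 0.13). Mutant against wild-type rescue gave -0.39 (-0.53 to -0.26). The wild-type rescue remained below the scrambled control by a log2 ratio of -0.15 (-0.27 to -0.03), an interval that held 0 when libraries were scaled by total counts. Of its 4476 exon bases, 220 lie under *Apof* on the same strand, which had 40, 45, 35 and 60 reads.

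None of the *Stat2* ratios reached 2-fold or 1.5-fold, and ratios of this size were common: 14.4% of tested genes had a lower ratio in the knockdown. After centring on GC content and exon length the ratios in the same order were -0.51, 0.32, -0.04, -0.38 and -0.15. The summed 2-cell-like markers split the libraries into the same pairs in the opposite direction. Singly, *Gm4340* (1856, 2771, 2733 and 3940 reads) and *Tcstv1* (1, 43, 13 and 9) did not split in this way. The 9 fibroblast markers summed to 52.9, 37.3, 48.0 and 41.5 CPM, with 2 of the 9 at or under 3 reads in every library. The most abundant fibroblast marker in shScram+EV, *Pdgfrb*, had 747, 394, 731 and 393 reads, and *Thy1* had 448, 296, 317 and 243. Other fibroblast markers were higher in the knockdown than in the scrambled control. *Fbn1* had 403, 532, 476 and 580 reads, *Col1a1* 51, 82, 50 and 87, and *Col1a2* 20, 32, 2 and 14. Of the 8 macrophage and blood markers, which summed to 38.0, 33.4, 38.6 and 33.3 CPM, 3 were at or under 3 reads in every library. The part of these markers in the *Stat2* values was not tested.

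*Irf9* did not share the pattern of *Stat2*. The gene (chr14:55841442-55847487, plus strand), which encodes the DNA-binding subunit of the complex, had 467, 487, 467 and 486 reads, between 13.5 and 15.3 CPM, and all its intervals held 0. The receptor subunits *Ifnar1* and *Ifnar2* and the kinases *Jak1* and *Tyk2* were all detected, with 1777 to 2056, 394 to 427, 2589 to 2901 and 1387 to 1765 reads.

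**Figure D2:**
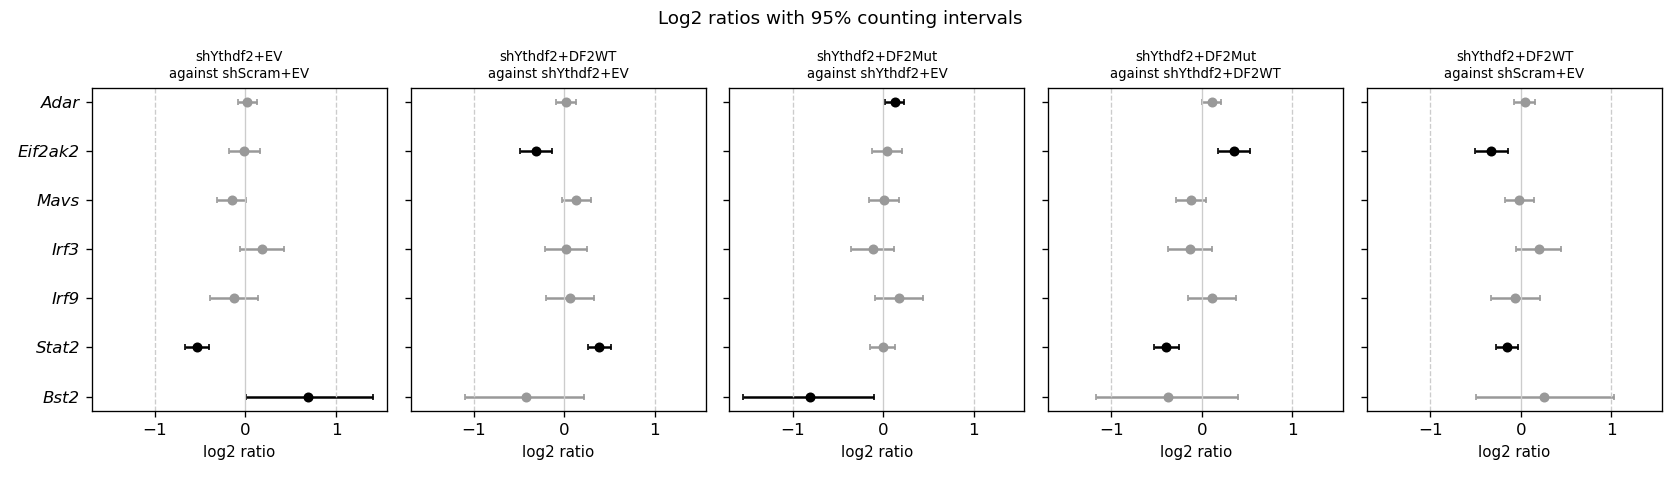
Log2 ratio (x axis) of the 7 genes averaging at least 10 reads in each of 5 comparisons, 1 panel each, with lines for the 95% counting interval, black where it leaves out 0 and grey where it holds 0. Dashed lines mark 2-fold, which no gene passed, and *Stat2* lay at -0.53, 0.39, -0.01, -0.39 and -0.15 from left to right.

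The last 2 genes are induced by interferon, and they were the lowest beside *Ifih1*. *Isg15* (chr4:156283881-156285275, minus strand), a ubiquitin-like protein conjugated to other proteins during the interferon response, had 0 reads in 3 libraries and 1 read in shYthdf2+DF2Mut. The limit of 3 reads was from 0.0835 to 0.0949 CPM depending on the library, and a count of 0 allows up to 7.38 reads on read pairs. *Isg15* was within both limits in every library, was not detectable at this depth, and is given no ratio. Of its 756 exon bases, 98 lie under *Gm46878* on the opposite strand, which had 150, 92, 114 and 49 reads. Counting ignored strand, so reads in the shared bases were given to neither gene.

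*Bst2* (chr8:71986899-71990116, minus strand), or tetherin, which holds budding viruses at the cell surface, had 56, 103, 70 and 52 reads, or 1.77, 2.87, 2.13 and 1.63 CPM. It was highest in shYthdf2+EV, at 1.61 times shScram+EV, but the log2 ratio of 0.69 had an interval of 0.00 to 1.41 that held 0 under upper-quartile scaling or when scaling left out chromosomes 12 and Y. With wild-type YTHDF2 the log2 ratio to the knockdown was -0.43 (-1.09 to 0.22), and with the mutant it was -0.80 (-1.55 to -0.10). The direct ratio of mutant to wild-type rescue was -0.38 (-1.17 to 0.39), so the libraries with each form of YTHDF2 could not be set apart for *Bst2*.

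Promoter sequence gives the context of these inducible genes, and the windows that hold the response element are shown. RefSeq promoter windows of 250 bases before to 50 after the start site (GRCm38.p6, a different build from the counts) were matched by symbol for all 9 genes, and searched on both strands for the interferon-stimulated response element written GAAANNGAAA, or TTTCNNTTTC on the other strand, with overlapping matches kept. Such a match was in 5 of the 9 genes, against 3.99% of the 27025 symbols in the table and 25 of 60 genes (41.7%) on a wider list of interferon-stimulated genes. Capitals below mark the matched bases, and each run is written 5′ to 3′ on the gene's strand. *Isg15* and *Bst2* held overlapping copies, at -78, -72 and -66 and at -130 and -124 from the start site, counted from the first matched base. *Stat2* held a single copy in the other orientation at -222. The first 3 runs are the 250 bases upstream of the start site, at chr4:156200819-156201068 (minus strand), chr8:71537473-71537722 (minus strand) and chr10:128270248-128270497 (plus strand).
*Isg15*: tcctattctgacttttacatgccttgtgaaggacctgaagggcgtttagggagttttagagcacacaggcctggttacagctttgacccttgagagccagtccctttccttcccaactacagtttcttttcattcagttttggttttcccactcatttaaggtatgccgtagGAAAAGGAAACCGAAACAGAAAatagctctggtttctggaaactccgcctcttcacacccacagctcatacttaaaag
*Bst2*: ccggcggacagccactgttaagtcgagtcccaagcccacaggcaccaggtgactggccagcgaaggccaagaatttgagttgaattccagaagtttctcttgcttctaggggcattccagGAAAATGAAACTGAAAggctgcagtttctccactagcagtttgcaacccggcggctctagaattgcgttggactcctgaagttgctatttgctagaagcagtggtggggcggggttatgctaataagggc
*Stat2*: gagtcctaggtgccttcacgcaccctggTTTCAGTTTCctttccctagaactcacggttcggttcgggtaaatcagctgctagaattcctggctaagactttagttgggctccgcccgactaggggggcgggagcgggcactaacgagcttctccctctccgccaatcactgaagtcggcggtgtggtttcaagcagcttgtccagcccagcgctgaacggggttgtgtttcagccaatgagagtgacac
In *Eif2ak2* and *Ifih1* the match lay after the start site, at positions 19 and 33, and 30 bases around it are shown, at chr17:78882535-78882564 and chr2:62646206-62646235, both on the minus strand.
*Eif2ak2*: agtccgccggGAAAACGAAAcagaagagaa
*Ifih1*: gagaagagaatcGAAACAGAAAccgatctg
The windows of *Adar*, *Mavs*, *Irf3* and *Irf9* held no match to these letters.

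The 9 transcripts also differed in the letters of the m6A consensus. The longest GENCODE vM21 transcript of each gene held GGACT at 2.53 per kilobase in *Bst2*, 2.46 in *Irf3* and 2.09 in *Eif2ak2*, and at 1.14 in *Stat2*, 1.02 in *Adar*, 0.981 in *Mavs* and 0.548 in *Ifih1*, against a median of 1.02 over tested genes. *Isg15* and *Irf9* lay at 1.32 and 1.29. The *Irf9* transcript used, at 3869 bases, is longer than the 2688 exon bases counted for the gene, so part of it was not counted. A match is only a run of letters and says nothing of whether the base is methylated.

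By the median, the 7 genes averaging at least 10 reads were centred near 0 in every comparison. The median log2 ratio was -0.01 in shYthdf2+EV against shScram+EV, 0.02 in shYthdf2+DF2WT against shYthdf2+EV, 0.01 in shYthdf2+DF2Mut against shYthdf2+EV, -0.12 in shYthdf2+DF2Mut against shYthdf2+DF2WT and -0.02 in shYthdf2+DF2WT against shScram+EV. The medians over all 18586 tested genes were -0.002, 0.003, 0.007, -0.012 and 0.006. With member reads summed instead, the log2 ratio was -0.14 in shYthdf2+EV against shScram+EV and 0.08 in shYthdf2+DF2WT against shYthdf2+EV. It was 0.05 in shYthdf2+DF2Mut against shYthdf2+EV and -0.03 in shYthdf2+DF2Mut against shYthdf2+DF2WT. These comparisons share libraries and are not independent of each other.

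No member was 2-fold higher or lower in any comparison, and at 1.5-fold *Bst2* alone passed, higher in the knockdown against the scrambled control and lower in the mutant rescue against the knockdown. In shYthdf2+EV against shScram+EV, 7.1% of tested genes passed 2-fold upwards and 5.7% downwards, and 13.8% and 12.9% passed 1.5-fold. In shYthdf2+DF2WT against shYthdf2+EV the shares were 5.15% and 5.58% at 2-fold and 12.2% and 11.1% at 1.5-fold. In shYthdf2+DF2Mut against shYthdf2+EV they were 2.65% and 3.38% at 2-fold and 6.5% and 8.78% at 1.5-fold. In shYthdf2+DF2Mut against shYthdf2+DF2WT they were 5.4% and 6.21% at 2-fold and 12.2% and 14.9% at 1.5-fold, and in shYthdf2+DF2WT against shScram+EV 3.82% and 3.07% at 2-fold and 9.28% and 7.15% at 1.5-fold. With shares of this size in the background, 0 or 1 of 7 members past a threshold does not set them apart.

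The genes whose levels over the 4 libraries lay nearest to each member were found by the distance between log2 CPM values centred on their mean. The nearest to *Adar* was the interferon receptor gene *Ifnar1*, at 0.014. The nearest to *Stat2* was *Pfkfb1*, at 0.022, with 401, 313, 371 and 272 reads, followed by *Tmed2*. The nearest to *Bst2* was *S100a6*, at 0.028, with 370, 665, 453 and 335 reads. With 4 values a gene such likeness is common: from 549 genes for *Stat2* to 2717 for *Irf9* lay within 0.2 of it, and 18 for *Bst2*.

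The rest of the pathway was followed on 4 lists of 162 genes chosen for their roles, of which 129 had a mean count of at least 10. Most of the machinery was detected, and most of the ligands were not. Of 27 sensors, adaptors and kinases, 26 were tested, as were 20 of 23 genes of double-stranded RNA binding, editing and decay. Of 40 genes of interferon ligands, receptors and signalling, 24 were tested, 12 had 0 reads in all 4 libraries, among them *Ifnb1*, and 13 were at or under 3 reads in every library. Of 72 interferon-stimulated genes, 59 were tested.

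**Figure D3:**
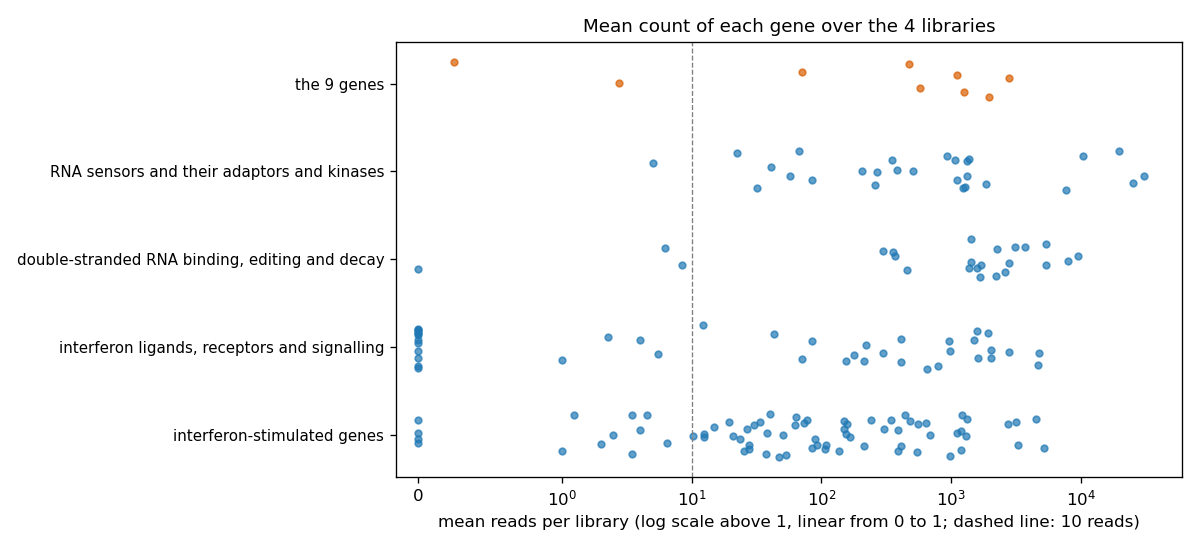
Mean reads per library (x axis, log scale above 1 and linear below) of the 9 genes and of the 4 wider lists, 1 point per gene, with height within a row spread at random. The dashed line marks the minimum of 10 reads, which 7 of the 9 genes and 129 of the 162 wider genes passed, and the column of points at 0 is longest in the list that holds the interferon ligands.

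Several named effectors were at or near the limit of detection beside *Isg15*. *Ifit1*, which binds foreign RNA, had 2, 0, 4 and 4 reads, *Usp18*, which removes ISG15 from its targets, had 3, 2, 2 and 2, and *Uba7*, the enzyme that activates ISG15, had 9, 3, 2 and 0. *Irf7*, which amplifies interferon induction, had 12, 4, 18 and 15. Others were abundant: *Ifitm3*, which blocks viral entry, had 901, 1282, 1292 and 939 reads, *Zc3hav1*, the zinc-finger antiviral protein, 1739, 1445, 1728 and 1785, and *B2m*, the light chain of class I molecules, 583, 579, 574 and 471. *Ube2l6*, the conjugating enzyme for ISG15, had 64, 73, 57 and 55 reads.

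Upstream of interferon, *Tbk1*, the kinase that activates IRF3, varied little, with 1260, 1367, 1198 and 1322 reads. Its log2 ratio in mutant against wild-type rescue was 0.19 (0.03 to 0.35). *Dhx58* and *Tlr3* were low, with 55, 39, 33 and 37 reads and 38, 16, 12 and 24 reads. *Dicer1*, which cuts double-stranded RNA into small RNAs, had 6323, 4952, 5136 and 5157 reads and was lower in the knockdown by a log2 ratio of -0.54 (-0.62 to -0.46). Against the knockdown its log2 ratio was 0.18 with wild-type YTHDF2 (0.10 to 0.26) and 0.24 with the mutant (0.15 to 0.32). *Prkra*, an activator of PKR, had 347, 234, 331 and 272 reads, with log2 ratios of -0.75 in the knockdown against the scrambled control (-1.11 to -0.41) and 0.63 in the wild-type rescue against the knockdown (0.28 to 0.98). With the mutant its ratio to the knockdown was 0.39 (0.03 to 0.76), and mutant against wild-type rescue gave -0.23 (-0.57 to 0.10). Of the regulators *Irf1* and *Irf2* the reads were 943, 931, 1137 and 859, and 44, 40, 50 and 38.

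Over the 129 tested genes of the 4 lists, 6 passed 2-fold upwards and 8 downwards in the knockdown against the scrambled control, or 4.65% and 6.20%. All tested genes gave 7.1% and 5.7% there. In shYthdf2+DF2WT against shYthdf2+EV the counts were 7 and 2, or 5.43% and 1.55% beside 5.15% and 5.58% of all tested genes. In shYthdf2+DF2Mut against shYthdf2+EV they were 2 and 0, or 1.55% and 0% beside 2.65% and 3.38%. In shYthdf2+DF2Mut against shYthdf2+DF2WT they were 3 and 8, or 2.33% and 6.20% beside 5.4% and 6.21%. In shYthdf2+DF2WT against shScram+EV they were 7 and 2, or 5.43% and 1.55% beside 3.82% and 3.07%. List medians ran from -0.17, for interferon-stimulated genes in mutant against wild-type rescue, to 0.17, for the sensors in the same comparison. They are given without GC correction, though ratios in that comparison moved with GC content (Spearman's rho -0.50). For RIG-I the ratio in that comparison was 0.62 (0.44 to 0.80), and 0.50 after centring on GC content and exon length.

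Among wider genes averaging at least 50 reads, those farthest from 0 are given by comparison. In shYthdf2+EV against shScram+EV, *Oasl1*, *Oas1a* and *Trim34a* were lowest, at -1.45, -1.28 and -1.16, and *Socs1*, a feedback inhibitor of Janus kinases, *Tap2* and *Tap1*, the peptide transporter of class I presentation, were highest, at 1.29, 0.80 and 0.77. The interval of *Tap2* held 0 (-0.09 to 1.78). In shYthdf2+DF2WT against shYthdf2+EV, *Oasl1*, *Oas3* and *Trim34a* were highest, at 1.53, 1.18 and 1.02, and *Ifit2*, *Dtx3l* and *Stau2* lowest, at -0.71, -0.65 and -0.46. In shYthdf2+DF2Mut against shYthdf2+EV, *Irf5*, *Tap2* and *Socs1* were lowest, at -0.69, -0.69 and -0.59, and *Trim34a*, *Oas1a* and *Nlrx1* highest, at 0.99, 0.76 and 0.58. The intervals of *Tap2*, *Socs1* and *Nlrx1* held 0 there.

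In shYthdf2+DF2Mut against shYthdf2+DF2WT, *Oasl1*, the shared cytokine receptor subunit *Il10rb* and *Irf5* were lowest, at -1.62, -1.21 and -1.18, and *Ifit2*, *Stau2* and *Dtx3l* highest, at 0.77, 0.76 and 0.62. In shYthdf2+DF2WT against shScram+EV, *Stau2*, *Oas1g* and *Dicer1* were lowest, at -0.40, -0.40 and -0.36, and *Socs1*, *Tap2* and *Nlrc5* highest, at 1.32, 1.10 and 0.75. The interval of *Oas1g* held 0 (-0.98 to 0.16). Transcripts of *Ifit2*, *Stau2* and *Dtx3l* had 42.0%, 42.8% and 45.9% GC, and their mutant against wild-type ratios were 0.47, 0.46 and 0.42 after centring on GC content and exon length.

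The oligoadenylate synthetase genes, whose products make oligoadenylates when they bind double-stranded RNA, stood out among those values, and they were looked at as a family only after their values had been seen, so no count over them is support. *Oasl1* had 152, 63, 167 and 52 reads, *Oas3* 198, 106, 220 and 104, *Oas1c* 104, 76, 121 and 53, and *Oas1g* 122, 74, 96 and 46. In these 4 genes both shYthdf2+EV and shYthdf2+DF2Mut had lower CPM than both other libraries. The log2 ratio of *Oas1g* in the wild-type rescue against the knockdown was 0.50 with an interval that held 0 (-0.15 to 1.16), and that of *Oas1c* in the knockdown against the scrambled control was -0.63 (-1.28 to -0.01). *Oas1a*, with 218, 102, 190 and 153 reads, had an intermediate value in shYthdf2+DF2Mut, and *Oas2*, with 228, 215, 202 and 208, was even. *Oas1b* and *Oasl2* had 32, 33, 16 and 21 reads and 4, 12, 11 and 14. Over the 8 genes the reads summed to 1058, 681, 1023 and 651. These are close paralogs on chromosome 5, so reads that fit several of them are uncertain.

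**Figure D4:**
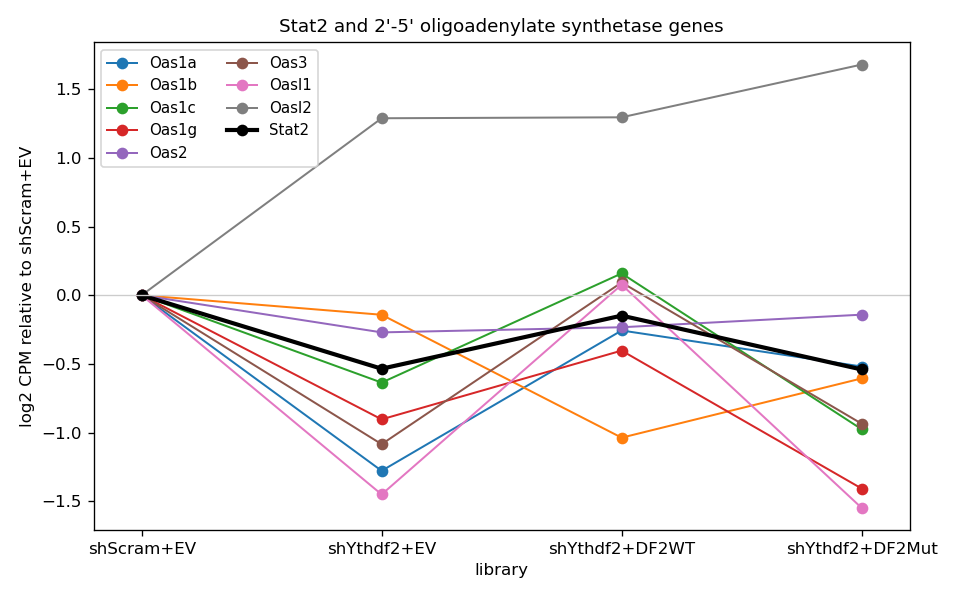
Log2 CPM relative to shScram+EV (y axis) in the 4 libraries (x axis) for *Stat2* (thick black line) and the 8 oligoadenylate synthetase genes averaging at least 10 reads. *Stat2*, *Oasl1*, *Oas3*, *Oas1c* and *Oas1g* were lowest in shYthdf2+EV and shYthdf2+DF2Mut, *Oas2* was nearly flat, and *Oas1b* and *Oasl2* rest on 4 to 33 reads per library.

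Correction for GC content and exon length moved the members unequally. It left *Stat2* within its counting interval in every comparison and took *Eif2ak2* out of its interval in the 3 comparisons with shYthdf2+DF2WT. The median of the 7 genes in shYthdf2+DF2Mut against shYthdf2+DF2WT went from -0.12 to 0.06. For *Irf3*, the most GC-rich of the 9 at 56.7%, the ratio in that comparison went from -0.13 to 0.09, and for *Bst2*, at 55.3%, from -0.38 to -0.03, both inside intervals that held 0.

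**Figure D5:**
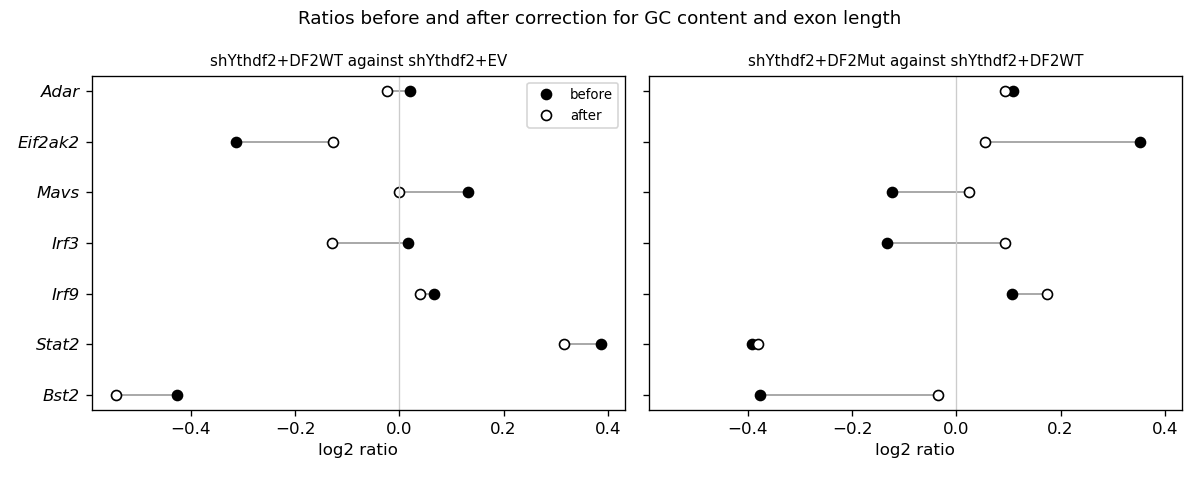
Log2 ratio (x axis) of the 7 genes before (filled) and after (open) centring on genes of like GC content and exon length, for wild-type rescue against knockdown (left) and mutant against wild-type rescue (right). *Eif2ak2* moved from -0.31 to -0.13 and from 0.35 to 0.06, and *Stat2* from 0.39 to 0.32 and from -0.39 to -0.38.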

How the data were processed

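RNA-seq was made from total RNA of 4 E14 cultures with dUTP-marked libraries, and per the study's methods from polyadenylated RNA. Per the file headers, the authors counted reads per gene with featureCounts 2.0.3, without strand and without counting read pairs, on mm39 gene models. The submitters' processing notes name fastp 0.19.4, HISAT2 2.2.1, DESeq2 1.40.2 and the build mm10, which differs from the header. The deposited values used were these raw counts and the exon length in bases, a value of another kind given per gene.

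Groups came from the sample titles, 1 library each, while the study's methods speak of 2 replicates. The members and lists were chosen with earlier results of these data known. Library sizes were scaled by TMM (edgeR 4.0.16, R 4.3.3; factors 0.976 to 1.01) on 18586 genes averaging at least 10 reads, and log2 ratios used a prior count of 0.5. *Ifih1* and *Isg15* fell below that minimum, so medians cover 7 genes. Intervals are exact 95% Clopper-Pearson intervals (SciPy 1.17.1) on reads divided by 2, since mates count separately; reads carried no molecular identifiers, so they cover counting error only. Genes were named for their roles, plus the 3 highest and 3 lowest wider genes of each comparison with a mean count of at least 50. Nearest genes had a mean count of at least 200. The scaling, intervals and ratios were tested on simulated data. Other scalings (upper quartile, total counts, DESeq2 1.42.0 size factors, and TMM without chromosomes 12 and Y), a prior count of 5, other minimum counts, a 1.5-fold threshold and a GC and length correction (10 GC bins by 5 length bins) were tried. 2 genes were listed under older symbols. Some genes named by the rule are not reported here.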

Additional observations from a re-analysis of the deposited data

How the results depend on the processing

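No paired analysis was possible because each group has 1 library, and for the same reason no library could be left out. Of 335 values under alternative settings, covering 65 results, 302 stayed within the counting interval or within 1.5 times the count, and 33 moved. No member ratio whose interval left out 0 changed sign. Among values near 0, single members changed sign 9 times, the median of the 7 genes 6 times and the wider median 1 time, under total counts, DESeq2 size factors or GC and exon length correction. Scaling shifted the median of all genes by at most 0.05. Of 210 values for single members, 207 stayed, and the others were *Eif2ak2* after GC and exon length correction, at -0.13, 0.06 and -0.13 in the wild-type rescue against the knockdown, the mutant against the wild-type rescue and the wild-type rescue against the scrambled control. In the same correction the median of the 7 genes in mutant against wild-type rescue became 0.055. Among 35 member ratios, 5 intervals went from holding 0 to leaving it out, or back, under some scaling: *Adar* in mutant against wild-type rescue, *Bst2* and *Mavs* in the knockdown, and *Irf3* and *Stat2* in the wild-type rescue, all 4 against the scrambled control. The cause was not tested beyond what each setting changes by construction.

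At 1.5-fold, 1 member was higher in the knockdown against the scrambled control and 1 was lower in the mutant rescue against the knockdown. Wider genes higher and lower at 1.5-fold were 16 and 18 in the knockdown against the scrambled control. These are 12.4% and 13.95%, beside 13.8% and 12.9% of all tested genes. In the wild-type rescue against the knockdown they were 18 and 7 (13.95% and 5.43% beside 12.2% and 11.1%). In the mutant rescue against the knockdown they were 7 and 7 (5.43% and 5.43% beside 6.5% and 8.78%). In mutant against wild-type rescue they were 10 and 18 (7.75% and 13.95% beside 12.2% and 14.9%). Requiring an interval that left out 0 gave 3 higher in the knockdown, 0 higher in the mutant rescue against the knockdown, 1 higher in mutant against wild-type rescue, and 3 higher and 1 lower in the wild-type rescue against the scrambled control. A mean count of at least 1 gave 13 higher in the knockdown, 7 lower in the wild-type rescue against the knockdown, 5 higher and 4 lower in the mutant rescue against the knockdown, 7 higher in mutant against wild-type rescue, and 11 and 6 in the wild-type rescue against the scrambled control. A mean of at least 50 gave 1 higher in the knockdown, 4 and 0 in the wild-type rescue against the knockdown, 0 higher in both comparisons of the mutant rescue, and 2 and 0 in the wild-type rescue against the scrambled control. These interval and mean-count rules were applied to the 2-fold counts. The share of all genes past 2-fold under them was not computed, so these counts have no background beside them. *Bst2*, with 52 to 103 reads, had the widest intervals of the 7 genes.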
